A study of Homo sapiens with 6 samples.

Results

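The genes described here are 44 genes of ribosome biogenesis and the nucleolus, found by their symbols in a table of 58884 genes. All 44 had counts in every library and passed the expression filter that 16859 genes passed. They were measured by sequencing polyadenylated RNA of HL-60, a promyelocytic line started from an acute leukemia, which the labels class as RAS-mutant. One group was transduced with a lentiviral short hairpin RNA (shRNA) against EZH2, the enzyme of PRC2 that methylates histone H3 (EZH2 shRNA, 3 libraries numbered 1, 3 and 4), and the other with a matching scrambled hairpin (control shRNA, 3 libraries numbered 3, 4 and 5). In both groups stable cells were selected with puromycin, the drug was removed 2 days ahead, and the cells spent 24 hours in RPMI medium with 0.05% serum, so every value below is from cells low in serum. The labels call the cells a stable knockdown and the series text calls them knock-out. Separate transductions or cultures are not mentioned for the 3 libraries of a group, so the spread that p-values rest on may be technical.

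Ribosomes are made in the nucleolus. RNA polymerase I transcribes the long precursor of the ribosomal RNAs, small nucleolar ribonucleoproteins (snoRNPs) modify it, the small subunit processome folds and cleaves its 18S part, and a separate set of assembly factors builds the large subunit around the 28S and 5.8S parts. The genes for these proteins are among the best known targets of the transcription factor MYC, and their output usually follows growth. HL-60 cells carry extra copies of MYC.

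Total counts ran from 50809853 to 85074624 in EZH2 shRNA libraries and from 39717343 to 51622861 in control libraries. EZH2 had 79.46, 83.21 and 77.25 CPM (counts per library size after TMM normalization) in EZH2 shRNA libraries 1, 3 and 4, against 147.6, 150.5 and 150.3 CPM in control libraries 3, 4 and 5. The groups did not overlap, and the level in EZH2 shRNA cells was 53.5% of control (log2 fold change -0.90, SE 0.04, edgeR adjusted p = 3.22e-11; exact two-sided permutation p = 0.1, the smallest that 3 against 3 can give). Of 8 promyelocyte genes, 7 passed the filter, and the summed level of the 8 was 10200 to 10610 CPM in EZH2 shRNA libraries and 10070 to 10890 CPM in control libraries. MPO, at a mean of 9416 CPM in EZH2 shRNA and 9795 CPM in control cells, sets that sum (log2 fold change -0.06, edgeR adjusted p = 0.405). The others did not move together: PRTN3 (2.14), AZU1 (0.69) and CEBPE (0.38) rose on the log2 scale, CTSG (-0.22) and MS4A3 (-0.40) fell, CD33 was at 0.08 with no call, and ELANE was near 0 in all libraries. The summed T cell markers were at 32.24 to 36.05 CPM in EZH2 shRNA and 18.25 to 18.35 CPM in control libraries, almost all of it TRAC, with CD3G at 0 throughout. The summed B cell markers were at 35.59 to 38.72 CPM in EZH2 shRNA and 16.57 to 18.71 CPM in control libraries, mostly PAX5, with MS4A1 and CD79B at 0. Mitochondrial counts made up 3.62% to 4.01% of EZH2 shRNA libraries and 3.23% to 3.28% of control libraries. The part of these differences in the results below was not tested.

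Of the 44 genes, 25 rose and 9 fell in EZH2 shRNA cells, and 10 did not pass the test (edgeR quasi-likelihood, Benjamini-Hochberg adjusted p under 0.05 over all 16859 genes). Among all genes tested 46.7% were called, 23.8% higher and 22.9% lower. All changes were small, with log2 fold changes between -0.41 and 0.53 and a median of 0.19, where the median of all genes was 0.01. The CPM values of the groups did not overlap for 27 genes that were higher and 10 that were lower, against 27.9% and 27% of all genes (54.9% in either direction). In each of the 3 EZH2 shRNA libraries, 31 or 32 of the 44 genes were above their control mean, a count not made for all genes. MYC itself had 1371, 1433 and 1389 CPM in EZH2 shRNA libraries and 975.8, 991.9 and 960.4 CPM in control libraries, a log2 fold change of 0.52 (SE 0.04, edgeR adjusted p = 4.24e-08). MAX, its dimerization partner, was at 0.08 (edgeR adjusted p = 0.158).

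**Figure D1:**
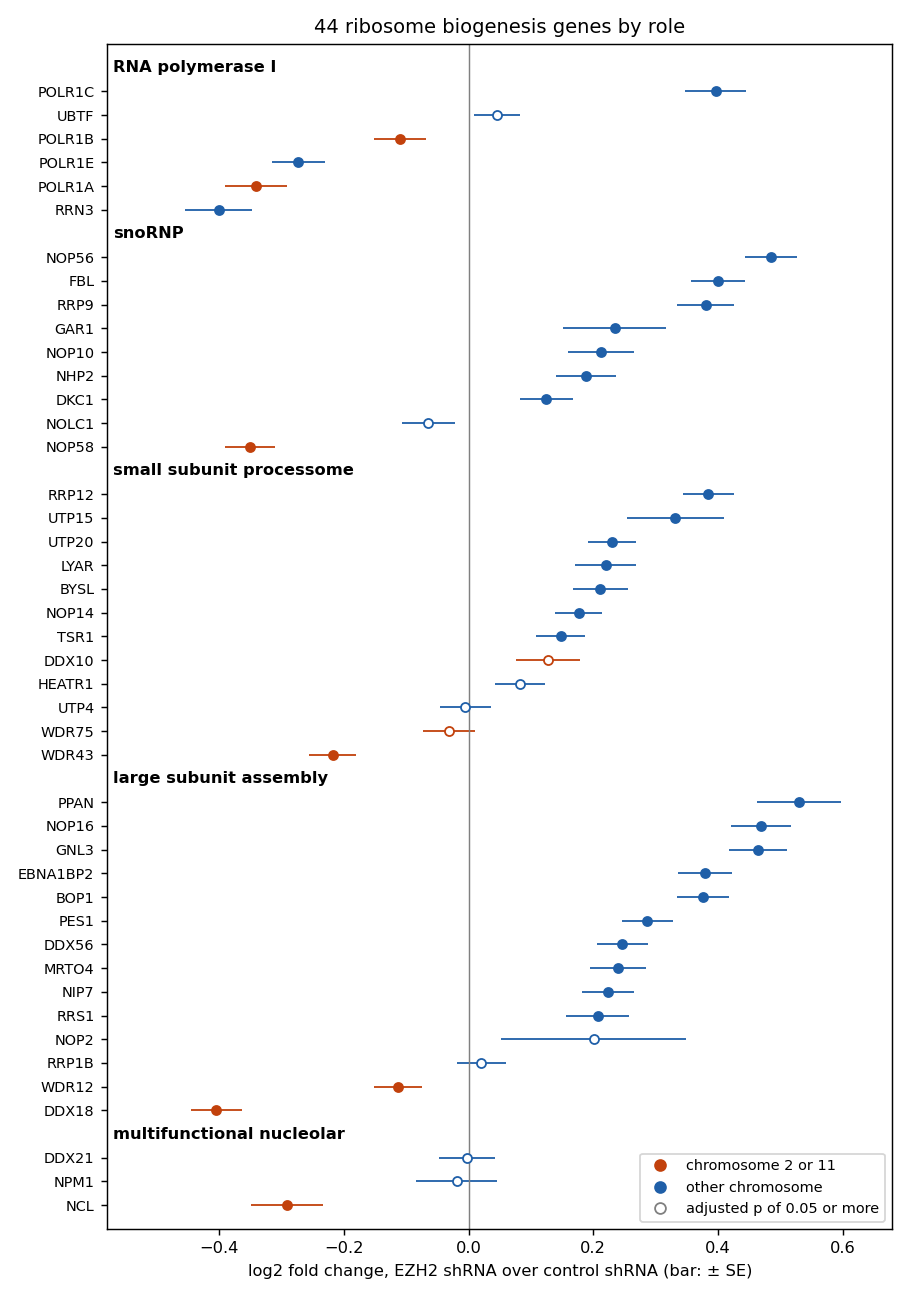
Log2 fold change of each of the 44 genes, EZH2 shRNA over control shRNA (horizontal axis, bars ± SE), sorted within the 5 roles. Red points lie on chromosome 2 or 11 and blue points elsewhere, and open points did not pass the test. Red points, with DDX10 as the exception, lie at or left of 0, and blue points mostly right of 0, with RRN3 and POLR1E as the blue points that fell.

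Promoter sequences from RefSeq were at hand for 36 of the 44, and the 250 bases before the start of each were searched on both strands for the MYC E-box CACGTG and for CCGGAAGT, a binding motif of ETS factors. The motifs share no bases with each other in any of these matches. The E-box stood in 4 of 36 (11.1%), against 6.49% of 27305 promoters of all genes, and the ETS motif in 6 of 36 (16.7%), against 3.64%. The 27305 were not limited to genes that passed the expression filter, as all 44 did. Promoters of expressed genes alone were not compared, so the part of expression in these differences was not tested. The stretches below give each match, whatever the direction of the gene, with up to 20 bases on either side. They run 5′ to 3′ on the strand of the gene, from RefSeq on GRCh38.p14. The motif is in capitals, and ACTTCCGG is the ETS motif on the other strand.
EBNA1BP2, E-box, chr1:43172782-43172820, minus strand: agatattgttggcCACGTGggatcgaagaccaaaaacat
NOP10, E-box, chr15:34343137-34343167, minus strand: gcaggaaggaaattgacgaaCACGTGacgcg
NOP10, second E-box, chr15:34343281-34343326, minus strand: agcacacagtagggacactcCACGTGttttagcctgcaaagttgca
UTP20, E-box, chr12:101280075-101280104, plus strand: gcgccgttcttttttccgtcCACGTGaccc
UTP4, E-box, chr16:69132613-69132648, plus strand: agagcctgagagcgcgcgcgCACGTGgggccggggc
DDX21, ETS motif, chr10:68956090-68956137, plus strand: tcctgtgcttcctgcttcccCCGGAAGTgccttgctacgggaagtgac
DDX56, ETS motif, chr7:44573979-44574026, minus strand: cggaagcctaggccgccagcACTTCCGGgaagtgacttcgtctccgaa
GAR1, ETS motif, chr4:109815461-109815508, plus strand: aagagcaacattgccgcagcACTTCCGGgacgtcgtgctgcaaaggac
NOP10, ETS motif, chr15:34343152-34343199, minus strand: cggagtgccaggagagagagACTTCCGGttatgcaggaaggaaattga
POLR1C (chr6:43509702-43562419), ETS motif, chr6:43516941-43516988, plus strand: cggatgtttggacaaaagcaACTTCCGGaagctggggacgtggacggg
UTP4, ETS motif, chr16:69132582-69132629, plus strand: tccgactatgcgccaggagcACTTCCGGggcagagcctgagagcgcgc
Of the 22 promoters of genes that rose, 3 held the E-box and 4 the ETS motif, of the 6 of genes that fell 0 and 0, and of the 8 without a call 1 and 2. Promoters of POLR1E, NOP58 and DDX18, which also fell, were not at hand, and 6 promoters are too few to compare the directions. UTP4 carried both motifs and did not pass the test. The RefSeq start can differ from the gene position in the deposited table. Matches of EBNA1BP2 (chr1:43164175-43270936), DDX56 (chr7:44565417-44575051), UTP4 (chr16:69131291-69231130) and POLR1C lie within the deposited gene. The first E-box shown for NOP10 (chr15:34341713-34343177) does too.

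The 6 RNA polymerase I genes did not move together, with 1 higher, 4 lower and 1 without a call. Of all genes tested, 23.8% were higher and 22.9% lower. Of the lower genes, POLR1A and POLR1B lie on chromosome 2, where 49.5% of all genes tested fell. Positions here and below are those of the whole gene in the deposited table, on GRCh38. POLR1C, a subunit shared with RNA polymerase III, had 90.13, 80.71 and 86.26 CPM in EZH2 shRNA libraries 1, 3 and 4, against 66.86, 61.97 and 66.58 CPM in control libraries 3, 4 and 5. All EZH2 shRNA libraries were above all control libraries (log2 fold change 0.40, SE 0.05, edgeR adjusted p = 4.16e-06). RRN3 (chr16:15060022-15094317), the initiation factor that brings polymerase I to the ribosomal DNA promoter, had 34.35, 33.46 and 30.61 CPM in EZH2 shRNA and 44.06, 43.76 and 41.88 CPM in control libraries. It fell to 75.7% of control with no overlap (log2 fold change -0.40, SE 0.05, edgeR adjusted p = 1.13e-05). Its 3 pseudogene copies together were at 14.2 to 16.88 CPM (scaled to total counts) in EZH2 shRNA and 13.9 to 16.79 in control libraries, which overlap, and reads of RRN3 and these copies can be confused.

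POLR1A (chr2:86020216-86106155), the largest and catalytic subunit, had 120.4, 133.7 and 134.9 CPM in EZH2 shRNA and 168.9, 155.6 and 168.7 CPM in control libraries, again without overlap (log2 fold change -0.34, SE 0.05, edgeR adjusted p = 2.53e-05). POLR1E (chr9:37485948-37503697), the PAF53 subunit, had 87.64, 81.68 and 86.99 CPM in EZH2 shRNA and 106.1, 102.4 and 101.4 CPM in control libraries (log2 fold change -0.27, SE 0.04, edgeR adjusted p = 4.75e-05). POLR1B (chr2:112541915-112577150), the second largest subunit, was lower by less, with 80.37, 85.32 and 84.94 CPM in EZH2 shRNA and 92.33, 88.64 and 89.72 CPM in control libraries (log2 fold change -0.11, SE 0.04, edgeR adjusted p = 0.0384). The POLR1B call was lost without any one library other than EZH2 shRNA library 3 (adjusted p = 0.0509 to 0.148). It was also lost with DESeq2 as the test (adjusted p = 0.0504). In edgeR it was lost with upper-quartile factors (adjusted p = 0.09), with no count filter (0.0629) and with the title number as a replicate block. UBTF (chr17:44205033-44221626), which binds the ribosomal DNA promoter and its upstream element, had 239.0, 234.2 and 241.2 CPM in EZH2 shRNA and 233.0, 230.2 and 229.3 CPM in control libraries and did not pass (log2 fold change 0.05, edgeR adjusted p = 0.347). On the opposite strand POLR1C overlaps XPO5 and YIPF3, whose counts were 258% and 99.2% of its own, and RRN3 overlaps PDXDC1, at 245%. The counting may or may not have used strand, so reads of these pairs may not be told apart. The same holds for further genes described below and their partners, with partner counts of 79.5% for NOP16 (HIGD2A), 66.0% for TSR1 (SGSM2), 45.0% for UTP15 (ANKRA2), 40.8% for HEATR1 (LGALS8), 32.6% for GNL3 (PBRM1), 26.1% for NHP2 (RMND5B) and 24.3% for NIP7 (COG8). SGSM2 and HIGD2A were themselves higher in EZH2 shRNA cells, at log2 fold changes of 0.45 and 0.17 (edgeR adjusted p = 7.11e-06 and 0.00455). Changes of the other partners, XPO5, YIPF3 and PDXDC1 among them, are not given here.

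**Figure D2:**
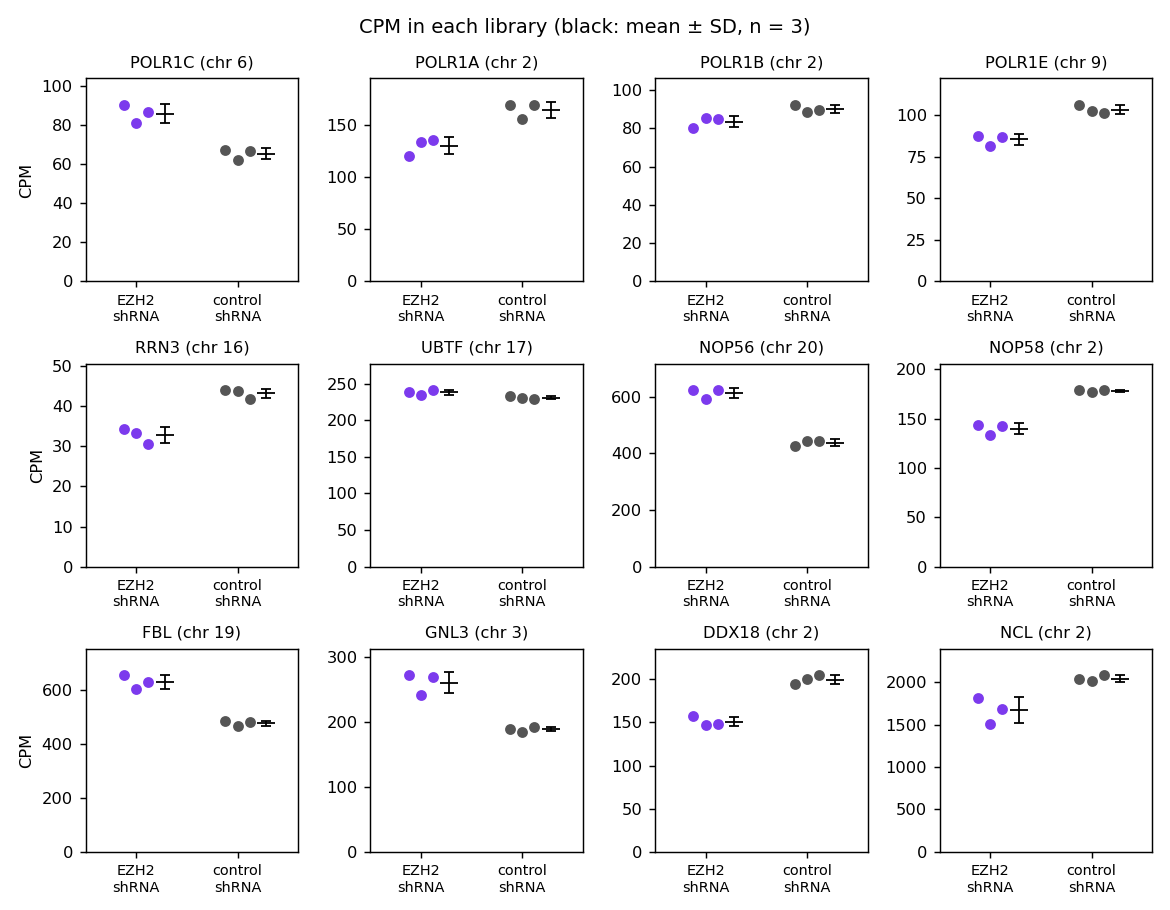
CPM of 12 genes (vertical axes from 0) in EZH2 shRNA libraries (purple, left) and control libraries (grey, right), with the mean ± SD (n = 3) in black beside each group. The groups are apart in every panel, though by little for UBTF and POLR1B, and POLR1C, NOP56, FBL and GNL3 are the panels where EZH2 shRNA libraries are clearly above control.

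Of the 9 snoRNP genes 7 rose, 1 fell and 1 did not pass, where 23.8% of all genes tested rose and 22.9% fell. The box C/D snoRNPs, which guide 2′-O-methylation of ribosomal RNA, share NOP56, NOP58 and the methyltransferase FBL. NOP56 (chr20:2652593-2658393) had 624.1, 594.1 and 622.7 CPM in EZH2 shRNA and 425.1, 444.7 and 445.1 CPM in control libraries (log2 fold change 0.49, SE 0.04, edgeR adjusted p = 7.54e-08). FBL (chr19:39834458-39846379) had 655.0, 603.5 and 628.6 CPM in EZH2 shRNA and 484.4, 465.7 and 479.6 CPM in control libraries (log2 fold change 0.40, SE 0.04, edgeR adjusted p = 9.82e-07). Both were higher in all EZH2 shRNA libraries than in any control library. NOP58 (chr2:202265736-202303661), the paralog of NOP56 in the same particle, went the other way, with 143.7, 133.5 and 142.2 CPM in EZH2 shRNA and 178.9, 177.1 and 179.0 CPM in control libraries (log2 fold change -0.35, SE 0.04, edgeR adjusted p = 1.78e-06). RRP9 (chr3:51933429-51941904), a protein particular to the U3 snoRNP, had 76.59, 73.6 and 74.33 CPM in EZH2 shRNA and 60.39, 54.51 and 57.69 CPM in control libraries, again with no overlap (log2 fold change 0.38, SE 0.05, edgeR adjusted p = 3.49e-06). The 3 pseudogene copies of NOP56 were also higher, at 34.36 to 37.61 CPM (scaled to total counts) in EZH2 shRNA and 20.65 to 24.84 in control libraries.

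The box H/ACA proteins, which form the pseudouridylation particles and also part of telomerase, rose by less. NOP10 and NHP2 were at log2 fold changes of 0.21 and 0.19 (edgeR adjusted p = 0.00336 and 0.00412). The pseudouridine synthase DKC1 at 0.12 (edgeR adjusted p = 0.0247) and GAR1 at 0.23 (0.0381) passed narrowly. GAR1 was the only snoRNP gene with a call whose groups overlapped, with 48.45, 37.04 and 42.43 CPM in EZH2 shRNA and 35.61, 37.62 and 35.37 CPM in control libraries. Leaving out any library other than EZH2 shRNA library 3 ended both calls, with adjusted p up to 0.108 for DKC1 and 0.122 for GAR1. Both calls were also lost with limma on log2 FPKM and with the title number as a replicate block. NOLC1, a chaperone of snoRNPs, was at -0.06 (edgeR adjusted p = 0.231) and passed as lower without EZH2 shRNA library 1 (0.0315).

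The small subunit processome and later 40S maturation group held 12 genes, of which 7 rose, 1 fell and 4 did not pass. The shares of all genes tested were 23.8% higher and 22.9% lower. RRP12 (chr10:97356358-97426076), a HEAT-repeat maturation factor, had 153.5, 159.6 and 157.0 CPM in EZH2 shRNA and 125.4, 116.4 and 118.6 CPM in control libraries (log2 fold change 0.38, SE 0.04, edgeR adjusted p = 8.46e-07). UTP20 (chr12:101280105-101386618), a large scaffold of the processome whose E-box is shown above, had 100.3, 102.2 and 101.6 CPM in EZH2 shRNA and 85.16, 86.2 and 87.95 CPM in control libraries (log2 fold change 0.23, SE 0.04, edgeR adjusted p = 0.000114). BYSL (chr6:41921499-41933046), needed for 40S maturation, had 64.68, 64.29 and 62.77 CPM in EZH2 shRNA and 53.55, 54.6 and 57.41 CPM in control libraries (log2 fold change 0.21, SE 0.04, edgeR adjusted p = 0.000755). None of these 3, named as the rises with the smallest p, overlapped between groups, and 27.9% of all genes tested were higher without overlap. UTP15 (0.33), LYAR (0.22), NOP14 (0.18) and the GTPase-like factor TSR1 (0.15) also rose on the log2 scale. WDR43 (chr2:28894667-28948219) fell, with 119.8, 117.4 and 120.9 CPM in EZH2 shRNA and 136.5, 138.8 and 141.3 CPM in control libraries (log2 fold change -0.22, SE 0.04, edgeR adjusted p = 0.000156).

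WDR43, WDR75, UTP4, UTP15 and HEATR1 belong to UTP-A, the subcomplex that binds the precursor first, and they did not share a direction. HEATR1 was at 0.08 (edgeR adjusted p = 0.103), UTP4 at -0.01 (0.926) and WDR75 at -0.03 (0.581), none with a call. The fourth without a call was the RNA helicase gene DDX10, at 0.13 (edgeR adjusted p = 0.0544), although its 3 EZH2 shRNA libraries, 56.16, 49.55 and 51.38 CPM, were above the control libraries at 49.53, 47.12 and 47.16 CPM. DDX10 passed without EZH2 shRNA library 3 (0.0227). In edgeR it also passed with upper-quartile factors (adjusted p = 0.0243), with no count filter (0.0433) and with 1 CPM in 3 libraries (0.0371). HEATR1 passed with upper-quartile factors (edgeR adjusted p = 0.0428) and with the title number as a replicate block.

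Of the 14 large subunit assembly genes 10 rose, 2 fell and 2 did not pass, against 23.8% higher and 22.9% lower among all genes tested. GNL3 (nucleostemin, chr3:52681156-52694497), a nucleolar GTPase, had 271.9, 241.3 and 268.6 CPM in EZH2 shRNA and 189.3, 185.1 and 192.5 CPM in control libraries (log2 fold change 0.46, SE 0.05, edgeR adjusted p = 4.17e-07). NOP16 (chr5:176383938-176388975) had 105.3, 94.6 and 99.51 CPM in EZH2 shRNA and 72.79, 68.53 and 74.99 CPM in control libraries (log2 fold change 0.47, SE 0.05, edgeR adjusted p = 5.81e-07). BOP1 (chr8:144262045-144291438) had 134.7, 140.8 and 132.4 CPM in EZH2 shRNA and 108.3, 104.5 and 101.4 CPM in control libraries (log2 fold change 0.38, SE 0.04, edgeR adjusted p = 1.31e-06). In these 3 genes, named as the rises with the smallest p, every EZH2 shRNA library was above every control library, as in 27.9% of all genes tested. The other rises were PPAN (0.53), EBNA1BP2 (0.38), BOP1's partner PES1 (0.29), the helicase DDX56 (0.25), MRTO4 (0.24), NIP7 (0.22) and RRS1 (0.21), the last a factor that loads the 5S particle.

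DDX18 (chr2:117814691-117832377), an RNA helicase, fell most of all 44, with 156.9, 146.8 and 148.6 CPM in EZH2 shRNA and 194.1, 199.9 and 204.8 CPM in control libraries (log2 fold change -0.41, SE 0.04, edgeR adjusted p = 4.44e-07). WDR12 (chr2:202874782-203014798), which joins BOP1 and PES1 in the PeBoW complex, had 100.9, 98.93 and 101.7 CPM in EZH2 shRNA and 110.3, 107.2 and 108.7 CPM in control libraries (log2 fold change -0.11, SE 0.04, edgeR adjusted p = 0.0223). Its groups were apart by a few CPM, and the call was lost without EZH2 shRNA library 4 (0.0552) or control libraries 3 (0.0896) or 5 (0.057). RRP1B was at 0.02 (edgeR adjusted p = 0.702). NOP2, a 28S ribosomal RNA methyltransferase, was at 0.20 (edgeR adjusted p = 0.291) from a mean of only 3.068 CPM in EZH2 shRNA and 2.671 CPM in control cells. NOP2 overlaps AC006064.6 on the same strand, and PPAN the read-through gene PPAN-P2RY11 and P2RY11, and AC006064.6 is listed at 0 counts. How the authors' counting treated reads shared between such genes is unknown, so both levels are uncertain.

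The 3 abundant nucleolar proteins with several functions had no rise. NCL (nucleolin, chr2:231453531-231483641) had 1812, 1511 and 1686 CPM in EZH2 shRNA and 2035, 2010 and 2084 CPM in control libraries (log2 fold change -0.29, SE 0.06, edgeR adjusted p = 0.000539). Its groups did not overlap, and its EZH2 shRNA libraries were more spread than its control libraries, with SDs of 151.2 and 37.61 CPM. NPM1 (nucleophosmin) was at -0.02 (edgeR adjusted p = 0.835), with 1458, 1168 and 1310 CPM in EZH2 shRNA and 1338, 1312 and 1338 CPM in control libraries. Without EZH2 shRNA library 1 it was at -0.11 and passed (0.0479). Its 46 pseudogene copies had counts that came to 39% of its own, and reads of NPM1 and these copies can be confused. The helicase DDX21 was at 0.00 (log2 fold change -0.0026, edgeR adjusted p = 0.969).

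Within the EZH2 shRNA group the genes were not level. Library 1 was the highest of the 3 for 28 of 44 genes and library 3 the lowest for 27. In the control group library 4 was the lowest for 26. These orders were counted for the 44 genes only, so whether they are particular to these genes was not tested. The median log2 ratio to the control mean over the 44 genes was 0.212 in EZH2 shRNA library 1, 0.115 in library 3 and 0.177 in library 4. Library 3 was also the EZH2 shRNA library with the largest mitochondrial share, 4.01%, and the part of this in the spread was not tested.

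Levels per length, as FPKM (counts scaled to depth and gene length), covered a wide range. NPM1 (340.0 ± 36.84 in EZH2 shRNA, 346.5 ± 4.227 in control; SD, n = 3 each), FBL (292.0 ± 11.31 in EZH2 shRNA, 222.4 ± 4.834 in control) and NCL (243.0 ± 21.47 in EZH2 shRNA, 299.0 ± 5.295 in control) were the most abundant. In control cells NCL was above FBL, and in EZH2 shRNA cells FBL was above NCL, both by more than the SDs. UTP15 (2.608 ± 0.1716 in EZH2 shRNA, 2.077 ± 0.1651 in control) and NOP2 (0.6498 ± 0.08908 in EZH2 shRNA, 0.5685 ± 0.06467 in control) were the least abundant.

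The genes were divided by chromosome. Of the 9 genes on chromosomes 2 and 11, 7 fell, 0 rose and 2 did not pass, and of the 35 genes elsewhere, 25 rose, 2 fell and 8 did not pass. These chromosomes were lower as a whole: of the 1968 genes tested on them 49.1% fell and 9.86% rose, against 19.4% and 25.6% of the 14891 genes elsewhere. The median log2 fold change of the 9 genes was -0.22, beside -0.24 for all genes of the same 2 chromosomes. The median of the 35 others was 0.22, beside 0.03 for all genes elsewhere. In each EZH2 shRNA library 30 of the 35 genes were above their control mean, against 1 or 2 of the 9. This was not counted for all genes of these chromosomes. The 2 genes off chromosomes 2 and 11 that fell, RRN3 and POLR1E, both belong to RNA polymerase I. By role, the genes off these chromosomes that rose numbered 1 of 4 for polymerase I, 7 of 8 for snoRNPs, 7 of 9 for the small subunit, 10 of 12 for the large subunit and 0 of 2 for the nucleolar proteins NPM1 and DDX21.

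**Figure D3:**
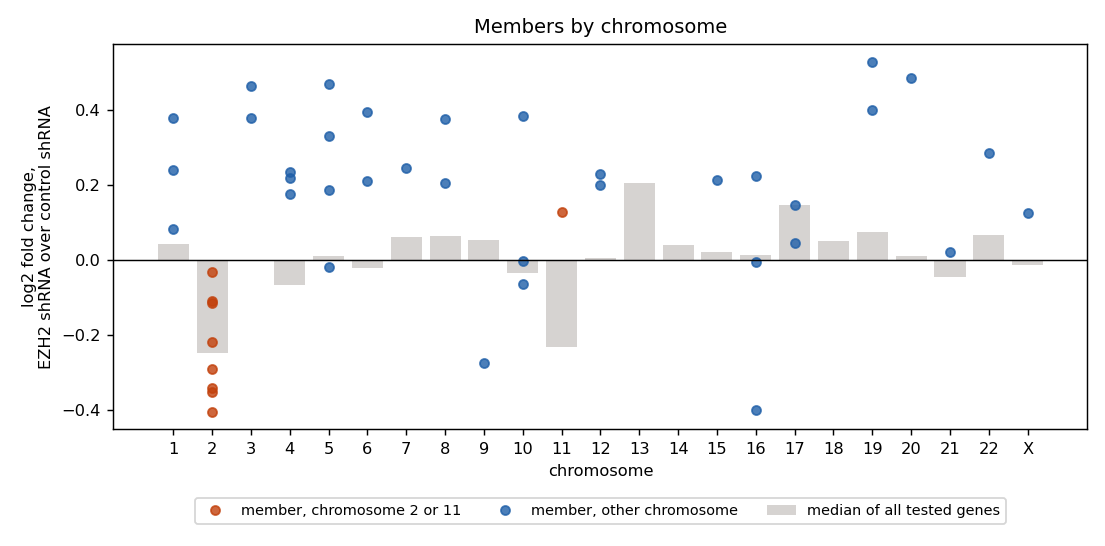
Log2 fold change (vertical axis) of the 44 genes by chromosome (horizontal axis), with grey bars for the median of all tested genes on each chromosome. The bars for chromosomes 2 and 11 stand at -0.25 and -0.23 and those for 13 and 17 at 0.21 and 0.15, and the genes on chromosome 2 lie around its bar while most blue points lie above theirs.

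Each gene was then set against its own chromosome, by removing from every library the median of that chromosome, and against its 40 nearest expressed genes. With chromosome medians removed 28 of 44 genes were higher and 4 lower, where 23.9% and 20.7% of all genes were called. With the windows 26 were higher and 3 lower (23.8% and 20.6% of all genes). NOP58, POLR1A, WDR43 and NCL, all lower at first, were level with their chromosome, at -0.06 (edgeR adjusted p = 0.238), -0.04 (0.529), 0.08 (0.104) and 0.00 (0.969). WDR75, WDR12, POLR1B and DDX10 stood above it, at 0.26 (4.19e-05), 0.18 (0.00085), 0.19 (0.00234) and 0.39 (8.26e-06), so that the direction of WDR12 and POLR1B was turned. DDX18 stayed lower, at -0.11 (edgeR adjusted p = 0.0255) against its chromosome and -0.13 (0.00883) against its neighbours. Without EZH2 shRNA library 3 or 4 or control library 4 or 5, the count of lower genes against their chromosome was 2 and not 4. RRN3 and POLR1E were as low as before, at -0.40 (edgeR adjusted p = 1.78e-05) and -0.29 (2.24e-05).

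The neighbours of the 8 genes on chromosome 2, from WDR43 at 28894667 to NCL at 231453531 (GRCh38), were lower at every one of these places, with window medians between -0.26 and -0.36. For DDX10 on chromosome 11 the window median was -0.22. Chromosome 17, higher as a whole, carries UBTF and TSR1. With chromosome medians removed UBTF was lower, at -0.10 (edgeR adjusted p = 0.0289), though not against its window (-0.04, 0.431), and TSR1 was at 0.00 (0.986). NOP14 lost its call against its window (0.09, edgeR adjusted p = 0.13) and DKC1 did too (0.10, 0.0756). NOP56, FBL, GNL3, NOP16, RRP12 and POLR1C were higher under both scalings, though NOP56, whose neighbours were at 0.20, was at 0.28 within its window and not 0.49.

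**Figure D4:**
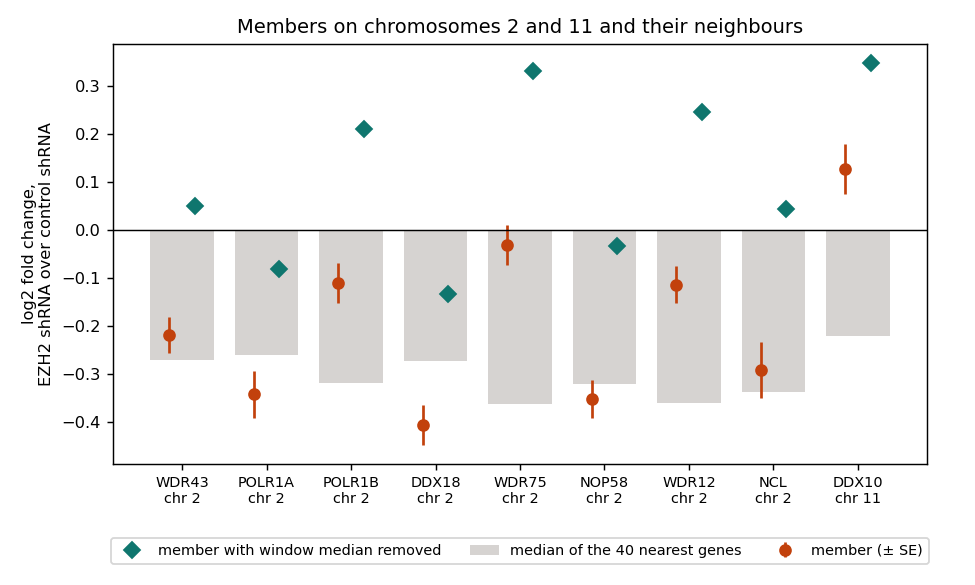
The 9 genes of chromosomes 2 and 11 in the order of their position, with log2 fold changes (red, ± SE), the median of the 40 nearest expressed genes (grey bars) and the log2 fold change with that median removed (green). POLR1A, NOP58, NCL and WDR43 sit near the end of their bars, while WDR75, WDR12, POLR1B and DDX10 sit well above them.

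Subunits of a complex that lie on chromosome 2 and elsewhere can be compared within a library, where scaling between libraries cancels out. The ratio of NOP58 to NOP56 in FPKM was 0.348, 0.34 and 0.345 in EZH2 shRNA libraries and 0.636, 0.602 and 0.608 in control libraries, so that its mean fell to 55.9% of control. NOP56 to FBL, both off chromosomes 2 and 11, overlapped between groups, at 0.412, 0.425 and 0.428 in EZH2 shRNA and 0.379, 0.412 and 0.401 in control libraries. In RNA polymerase I, POLR1A to POLR1C was 0.544, 0.675 and 0.637 in EZH2 shRNA and 1.03, 1.02 and 1.03 in control libraries (60.2% of control). In the PeBoW complex, WDR12 to PES1 was 0.195 ± 0.00539 in EZH2 shRNA and 0.257 ± 0.00628 in control libraries (SD, n = 3 each), while BOP1 to PES1 overlapped at 0.624 ± 0.0266 in EZH2 shRNA and 0.586 ± 0.0254 in control libraries. In UTP-A, WDR43 to HEATR1 was 1.54 ± 0.0316 in EZH2 shRNA and 1.89 ± 0.0307 in control libraries. POLR1A to POLR1B, both on chromosome 2, did not overlap either, at 0.701, 0.734 and 0.743 in EZH2 shRNA and 0.856, 0.822 and 0.88 in control libraries (85.1% of control). Of 12 ratios computed, 8 had a numerator on chromosome 2 and a denominator elsewhere, 1 had both genes on chromosome 2 and 3 had both elsewhere. Of the first 9, 8 were apart between groups and WDR75 to HEATR1 met at 1.21, while the other 3 overlapped. The exact two-sided permutation p was 0.1 for each of the first 9, the smallest possible, and 0.133 adjusted over the 12. The ratios were chosen after their values were seen, and several share a gene. These p-values therefore add nothing to the tests of the single genes.

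**Figure D5:**
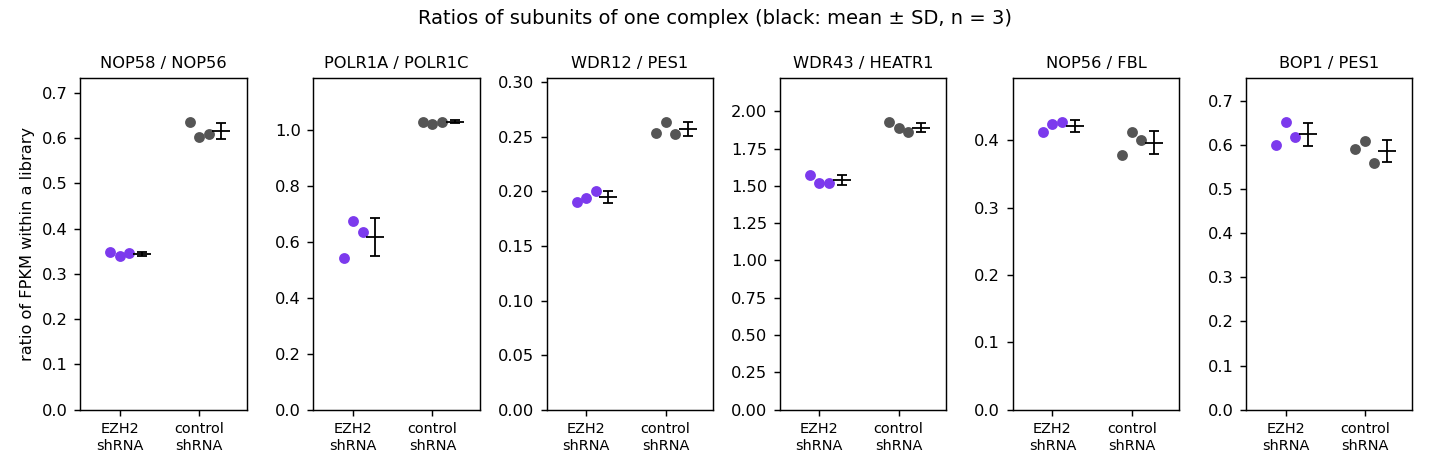
Ratio of FPKM values of paired subunits within each library (vertical axes from 0) for EZH2 shRNA (purple, left) and control shRNA (grey, right), with mean ± SD (n = 3) in black. In the first 4 panels the numerator lies on chromosome 2 and the groups are apart, with EZH2 shRNA below control, while in the last 2 panels both genes lie elsewhere and the groups overlap.

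Another 124 ribosome biogenesis genes, listed apart from the 44, were all measured. Of these 59 rose, 15 fell and 50 did not pass, with a median log2 fold change of 0.10, where 23.8% of all genes tested rose, 22.9% fell and the median was 0.01. The 5 rises with the smallest p were the exosome subunit EXOSC5 (0.50), the processome gene WDR3 (0.44), DHX37 (0.41), a helicase that acts on the U3 snoRNP, the ribosomal RNA methyltransferase FTSJ3 (0.40) and NUFIP1 (0.60), which assembles box C/D particles (edgeR adjusted p between 4.13e-08 and 1.56e-06). NUFIP1 lies on chromosome 13 and FTSJ3 on chromosome 17, both higher as a whole, and both were also called with chromosome medians removed. The 5 falls with the smallest p were the exosome subunits EXOSC1 (-0.48) and EXOSC3 (-0.46), NAT10 (-0.40), the acetyltransferase of 18S ribosomal RNA, TAF1D (-0.37), a part of the polymerase I selectivity factor, and NIFK (-0.33). Of the 10 genes of this list on chromosomes 2 and 11, 7 fell and 0 rose, where 49.1% of all genes tested there fell and 9.86% rose. Of the 114 elsewhere 8 fell and 59 rose, where 19.4% of all genes tested fell and 25.6% rose. With chromosome medians removed TAF1D and NIFK had no call, while EXOSC1 (-0.43) and EXOSC3 (-0.48) were about as low as before and NAT10 was lower by less (-0.13, edgeR adjusted p = 0.00705). Among its 10 polymerase I genes 3 rose and 2 fell, and the 2 that fell, TAF1B and TAF1D, lie on chromosomes 2 and 11. Off these chromosomes the falls of this list numbered 0 of 8 for polymerase I, 0 of 10 for snoRNPs, 2 of 39 for the small subunit, 3 of 41 for the large subunit and 3 of 16 for the nucleases. None of these 8 polymerase I genes fell as RRN3 and POLR1E did. At a share of 19.4% for all genes, 8 genes are too few to set those 2 apart.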

How the data were processed

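The authors deposited raw counts of reads per gene for 6 libraries without normalization, and FPKM values that the authors deposited in a second table. Per the labels' protocols, libraries were stranded, from polyadenylated RNA, with single reads of 50 bases. Tools in the submitters' processing notes are DESeq2 1.24.0, R 3.6.1, Picard 2.18.24 and STAR 2.5.2b, with GRCh38 as the build. The read counter, and whether it used strand, is not given. FPKM is a rescaled form of the counts (19251 of 19251 genes with counts in all libraries had one ratio per library pair, tolerance 0.001), so it is no independent measurement.

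From the counts, edgeR 4.0.16 (R 4.3.3; filterByExpr, TMM, robust quasi-likelihood test, group as the only term) gave log2 fold changes of EZH2 shRNA over control, SEs from the F statistic, and Benjamini-Hochberg adjusted p over 16859 genes at 0.05. Chromosome and window medians came from genes above 2 in mean log2 CPM and entered as offsets. Alternatives used DESeq2 1.42.0 and limma 3.58.1. Scripts were tested on simulated data. A floor of 3 counts was 0.0353 to 0.0759 CPM per library, and covers counting error only. No libraries of the same group were duplicates by a chi-square test of their counts (3.02 to 15.9 per degree of freedom).

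Members, lists and the split by chromosomes 2 and 11 were chosen with earlier results of these data known. Values in every library were given for EZH2, the polymerase I genes, NOP56, NOP58 and FBL, and per other role for the 3 higher and 3 lower genes with the smallest p; GAR1, DDX10 and NPM1 and the ratios were chosen after their values were seen. Of the other biogenesis genes, 5 per direction were named.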

Additional observations from a re-analysis of the deposited data

How the results depend on the processing

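The counts of genes that rose (25) and fell (9) changed little under other normalizations, filters and tests, at 23 to 27 higher and 7 to 9 lower. Leaving out each library in turn gave 23 to 26 higher, 7 to 10 lower, 2 to 4 lower with chromosome medians removed, and log2 fold changes of EZH2 mRNA from -0.948 to -0.878. Of the 34 calls, 24 held under every alternative and 30 under every one other than the 2 regional scalings. Libraries 3 and 4 of each group share title numbers, which nothing says pair them. Their differences correlated weakly (r = 0.13), and a fit with the number as a replicate block on these 4 libraries gave 24 higher and 8 lower.

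The regional scalings moved the falls. With chromosome medians removed 4 genes were lower, and with window medians removed 3. The median log2 fold change of members on chromosomes 2 and 11 turned to 0.0772 and 0.0506, beside 0.0432 and 0.0443 for all genes tested on these chromosomes. The members' median was -0.255 for chromosome 2 alone, and DDX10 alone, on chromosome 11, was at 0.127. With chromosome medians removed the sign turned for POLR1B (0.186), UBTF (-0.101), WDR43 (0.0772), WDR75 (0.264), WDR12 (0.182), NCL (0.00304) and DDX21 (0.051). With window medians removed it turned for POLR1B (0.209), UBTF (-0.0405), NOLC1 (0.00393), WDR43 (0.0506), WDR75 (0.331), WDR12 (0.245), NCL (0.0436) and DDX21 (0.0531). These scalings subtract a negative shift on chromosome 2 by construction.

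Genes near 0 without a call also turned sign. With upper-quartile factors these were UTP4 (0.0158), NPM1 (0.00164) and DDX21 (0.0187), and with 1 CPM in 3 libraries UTP4 (0.00347) and DDX21 (0.00633). With single libraries left out, UTP4 ranged from -0.0422 to 0.0127, RRP1B from -0.00923 to 0.0338, NPM1 from -0.111 to 0.0421 and DDX21 from -0.0387 to 0.0186. The cause was not tested.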
